A study of Mus musculus with 7 samples.

Results

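The Tip60 ChIP-seq profile of mouse embryonic stem cells (ESCs) upon knockdown of Hdac6 (Hdac6 KD) was compared with that upon knockdown of GFP (GFP KD), the control, row by row around transcription start sites (TSSs). This comparison used 2 of the 7 samples, 1 a side, so nothing here has a replicate check and no p-value is given. In both samples, the ESCs (E14 line) had 1 endogenous copy of Tip60 fused to the H3F tag, which Flag antibodies bind, and chromatin was taken 72 hr after infection with a lentivirus carrying a single short hairpin RNA against GFP or Hdac6. GFP is not a gene of these cells, so that the control holds infection and hairpin but no target. Flag ChIP of ESCs without a tag gave the background, and ChIP of endogenous p400 upon the same knockdowns gave a second subunit of the same complex. Hdac6 reads came from Flag ChIP of GFP KD cells of another E14 line, with the H3F tag on endogenous Hdac6. ChIP does not measure expression, so neither the depth of the knockdown nor the markers of ESCs could be checked, and the promoters of Kat5 (Tip60) and Hdac6 had only 6 and 4 reads in GFP KD cells.

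Each file has 36733 rows, 1 per TSS, of which 22704 have a RefSeq identifier that stands for 17689 genes. For each row, reads were counted in a downstream window (−100 to 300 bp from the TSS) and an upstream window (−600 to −200 bp), and a row was ranked when both samples together had at least 20 reads. This left 1798 rows (1194 genes) downstream and 1640 rows (1105 genes) upstream. The deposited signal of 1 sample was normalized to 21339356 reads (GFP KD) and of the other to 19161071 reads (Hdac6 KD), and the median row had only 4.75 and 3.34 reads downstream, so at most rows single-gene changes were not detectable at this depth. Ratios are Hdac6 KD over GFP KD after that normalization, each with a 95% exact conditional interval that covers counting error only and not the spread between cultures.

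Tip60 (Kat5) is the acetyltransferase and p400 (Ep400) the nucleosome remodeler of the Tip60-p400 complex, which acetylates histones and exchanges histone variants at promoters and is required for the identity of ESCs. Hdac6 is a deacetylase that is mainly cytoplasmic in differentiated cells and joins this complex in ESCs. Aminoacyl-tRNA synthetases, which recur below, load amino acids onto their tRNAs. Many of their genes, together with genes for amino acid synthesis and import, are induced through ATF4 when amino acids are short, and ATF4 binds the C/EBP-ATF response element (CARE), whose core reads TGATGCAA.

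Because tRNA synthetase genes were 4 of the 10 genes with the lowest upper bounds described below, the CARE core and its surroundings are shown for 9 of the members of the synthetase list and of an amino acid response list that had 20 or more reads, were at least 2-fold lower downstream and held 1 match between −600 and 300 bp. Letters are the gene's strand of the mm9 genome, 30 bases each, 5′ to 3′, with the core or its reverse complement in capitals.
Tars: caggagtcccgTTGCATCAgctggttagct
Iars: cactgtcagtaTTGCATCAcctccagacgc
Eprs: acccgcgcgggTTGCATCAgcgcgtgggtg
Yars: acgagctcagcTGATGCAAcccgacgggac
Mars: gccggttccgaTTGCATCAgcgtgggctcc
Nupr1: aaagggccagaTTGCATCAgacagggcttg
Slc1a4: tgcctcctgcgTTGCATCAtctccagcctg
Slc6a9: cctcgggaggcTGATGCAActttcccttta
Ddit3: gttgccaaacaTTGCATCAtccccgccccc
The sites lie at chr15:11329410-11329439 (Tars, minus strand), chr13:49777495-49777524 (Iars, plus), chr1:187187138-187187167 (Eprs, plus), chr4:128867139-128867168 (Yars, plus) and chr10:126748694-126748723 (Mars, minus). Those of the other genes are at chr7:133769076-133769105 (Nupr1, minus), chr11:20232702-20232731 (Slc1a4, minus), chr4:117507990-117508019 (Slc6a9, plus) and chr10:126727537-126727566 (Ddit3, plus). In the GENCODE vM1 annotation the core of Tars and Ddit3 lay upstream of the transcripts of the gene and that of Eprs in an intron. In Iars, Yars, Mars and Slc1a4 it lay in the first exon of some transcripts and upstream of others, and in Nupr1 and Slc6a9 in the first exon of some transcripts and an intron of others, and for Slc6a9 also upstream of some.

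Tip60 reads near the TSS were lower at many more genes than they were higher, and the 10 genes whose intervals had the lowest upper bounds held those of threonyl-, isoleucyl-, glutamyl-prolyl- and tyrosyl-tRNA synthetase and Xpot, the exportin that carries tRNAs out of the nucleus. Of the 1194 genes with 20 or more reads downstream, 250 were at least 2-fold lower (20.9%) and 65 at least 2-fold higher (5.44%). By the stricter rule that the whole interval lies on one side of 1, 155 genes (13.0%) were lower and 32 (2.68%) higher. Over all 1798 rows, 369 (20.5%) were lower and 5.90% higher, and the median log2 ratio was −0.33 (95% interval of the median −0.37 to −0.28). Intervals of medians, here and below, treat rows or genes as independent, although close TSSs share reads. They do not cover the spread between cultures. Rows just over the minimum (20 to under 22 reads) had a median of −0.21 and rows just under it (18 to under 20 reads) of −0.22. Windows of the same width were also counted in the flanks (1600 to 2000 bp and −2000 to −1600 bp) of rows with no other TSS within 1000 bp. Of those with 20 or more reads, 9.28% and 9.49% were at least 2-fold lower and 23.2% and 14.6% higher. Other TSSs farther than 1000 bp from the row's own may lie in or beside these flank windows, so they may not be free of promoters.

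The change moved with base composition. In flank windows, the pooled ratio dropped from 1.13 below 35% GC to 0.835 at 60 to 62.5% GC and 0.697 at 65 to 67.5% GC, and the ranked genes had a median GC content of 63.1% downstream. Across 5 equal bins of the ranked genes by GC content, the median log2 ratio went from −0.19 (35.4 to 57.4% GC) to −0.56 (67.8 to 81.8% GC). Above 62.5% GC the flank ratio rests on few windows, with 208 at 62.5 to 65% GC, 158 at 65 to 67.5% and 79 at 67.5 to 70%. It did not fall evenly there, at 0.743, 0.697 and 0.735. Other TSSs more than 1000 bp from the row's own may lie in these flanks. Dividing each window by the flank ratio of its GC bin left 126 genes at least 2-fold lower and 145 higher, with a median log2 ratio of 0.08. The part of GC content in the change was not tested, and the main groups below are also given with this correction, under which the median of all ranked genes was 0.08.

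**Figure D1:**
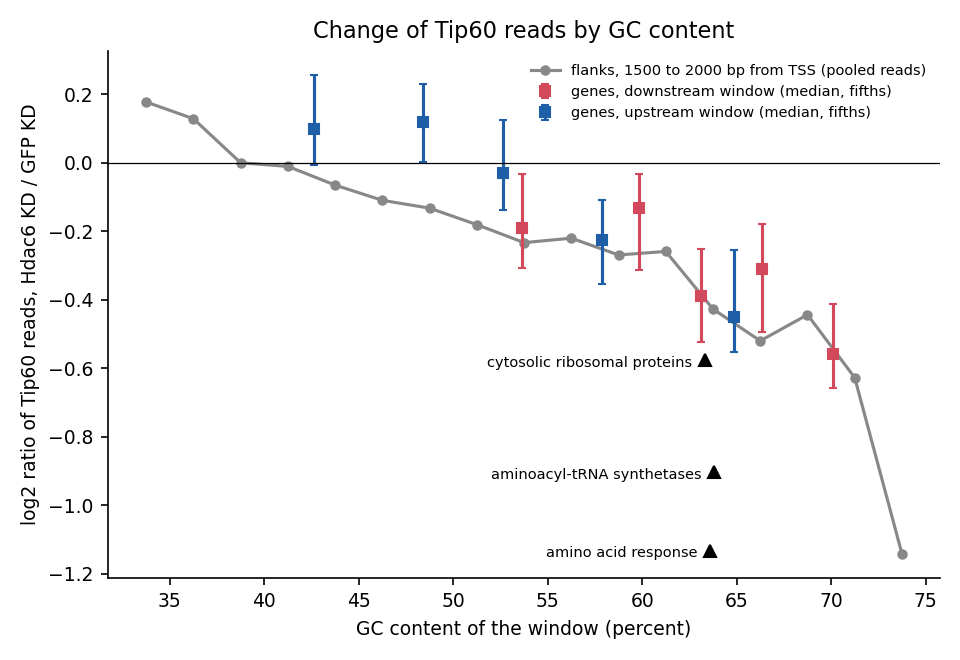
Median log2 ratio of Tip60 reads (Hdac6 KD over GFP KD) against GC content of the window in percent, for 5 equal bins of the ranked genes downstream (red squares) and upstream (blue squares; bars are 95% intervals of the median), for pooled flank windows (grey line) and for 3 gene lists (black triangles, median log2 ratio at the mean GC content of the list). The ribosomal protein list sits at −0.58, the synthetases at −0.90 and the amino acid response list at −1.13, all below the flank line at their GC content.

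Tars had 50 reads downstream in GFP KD cells and 4 in Hdac6 KD cells, a ratio of 0.0946 (0.0234 to 0.243), and Iars had 62 and 6 reads (0.105, 0.0381 to 0.248). Yars, with the most Tip60 reads of any synthetase gene, had 69 and 17 reads (0.276, 0.151 to 0.472). Untagged cells had 11 reads at Tars, 9 at Iars and 8 at Yars from a library of 23146787 reads. Reads in Hdac6 KD cells were fewer than these at Tars and Iars and more at Yars. This comparison was not scaled to library size and has no interval. Xpot had 38 reads in GFP KD cells and 5 in Hdac6 KD cells (0.150, 0.0450 to 0.373), against 4 in untagged cells. Eprs had 21 and 2 reads (0.0865, 0.0121 to 0.434), against 7 in untagged cells. The TSSs of these genes are at positions 11329413 of chromosome 15 (Tars), 49777513 of chromosome 13 (Iars), 128867195 of chromosome 4 (Yars), 121063372 of chromosome 10 (Xpot) and 187186974 of chromosome 1 (Eprs). The peaks of Tars and Iars stood near the TSS and that of Xpot further downstream. In GFP KD cells 46 reads overlapped position 40 of Tars and 54 overlapped position 80 of Iars, where Hdac6 KD cells had 4 and 6. At Xpot 39 reads overlapped position 320 in GFP KD cells and 1 in Hdac6 KD cells.

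**Figure D2:**
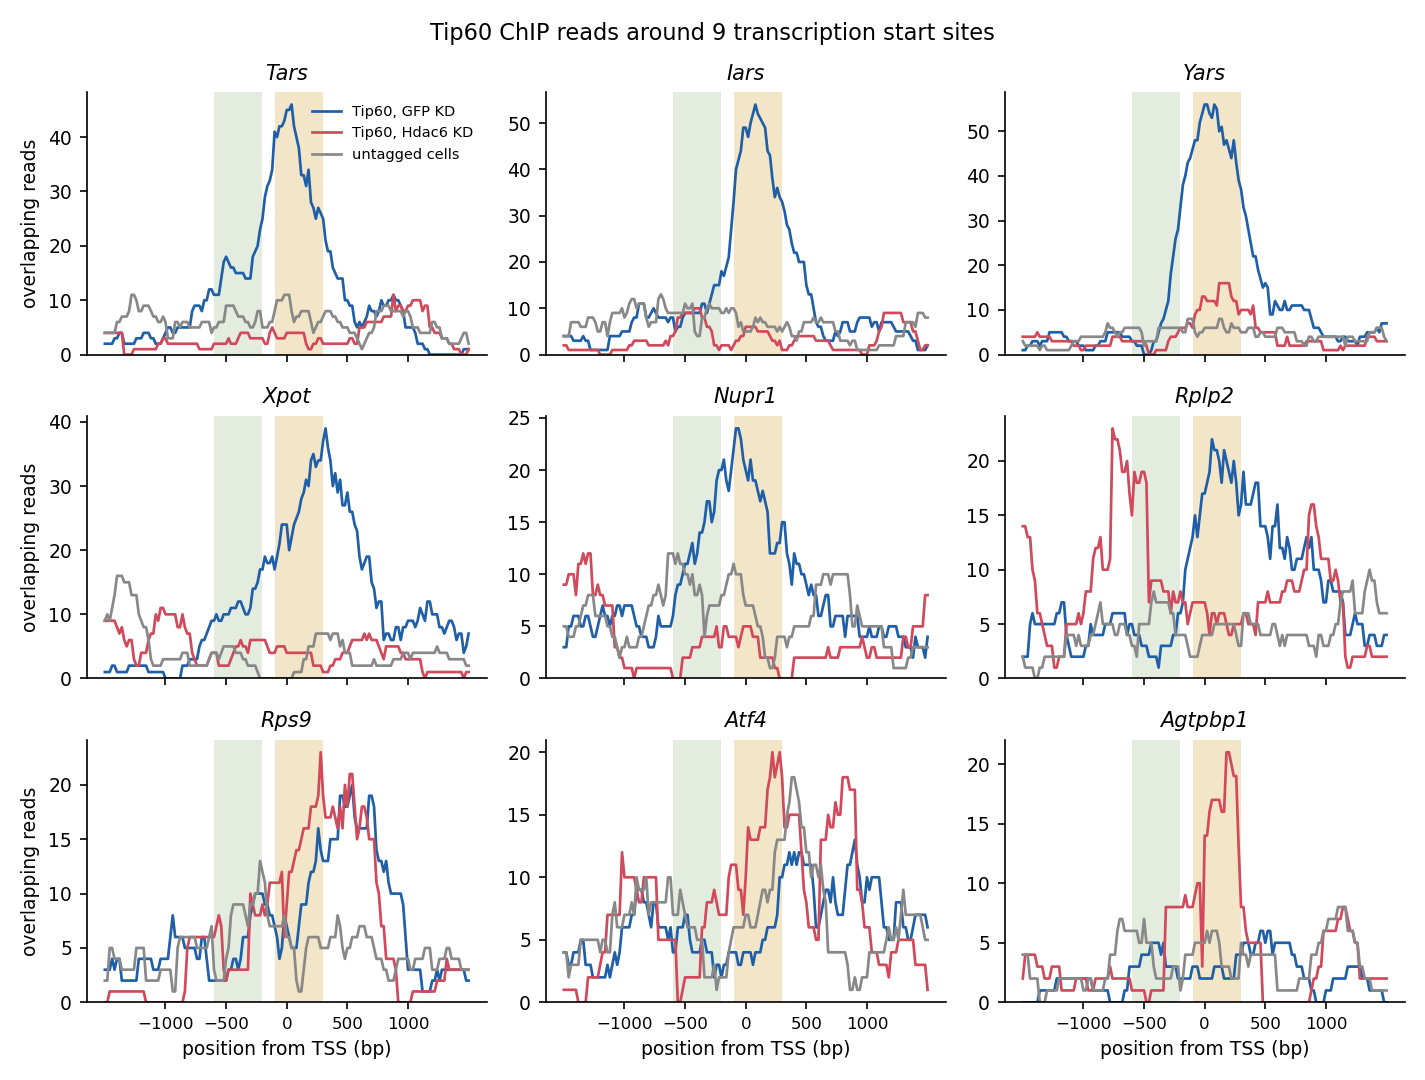
Number of Tip60 ChIP reads that overlap each position from −1500 to 1500 bp around 9 TSSs in GFP KD cells (blue), Hdac6 KD cells (red) and untagged cells (grey), with the upstream window shaded green and the downstream window tan. Peaks of Tars, Iars, Yars, Xpot and Nupr1 in GFP KD cells are lower in Hdac6 KD cells, while Rps9 (12 and 20 reads), Atf4 (7 and 20) and Agtpbp1 (4 and 20) have more reads downstream in Hdac6 KD cells.

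The other genes among the 10 with the lowest upper bounds serve the cell cycle, signaling and other functions. Wee1, a kinase that holds cells before mitosis, had 33 and 5 reads (0.183, 0.0514 to 0.435), and Ncapd2, a subunit of condensin, had 22 and 2 (0.117, 0.0115 to 0.412). Foxh1, a transcription factor of Nodal signaling, had 25 and 3 (0.135, 0.0258 to 0.438). Hebp1, a heme-binding protein, and Omg, a myelin glycoprotein, each had 20 reads in GFP KD cells and 2 in Hdac6 KD cells. Untagged cells had 4 reads at Wee1, 5 at Ncapd2, 11 at Foxh1, 12 at Hebp1 and 7 at Omg. These 10 genes were named because they stand at the end of the ranking, so their ratios are a description of the extremes. All of them stayed at least 2-fold lower with the GC correction, and 8 of the 10 have no other TSS within 1000 bp.

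The p400 ChIP came from other libraries and another antibody and was not used to choose these genes. p400 reads at these 10 genes were lower upon Hdac6 KD in 10 of 10, at ratios from 0.159 (Xpot) to 0.580 (Omg). They were also lower at 603 of the 619 ranked genes within 2-fold that have p400 values, so this count alone does not set the 10 genes apart. The interval was wholly below 1 in 9 of the 10. This is read against 51.7% of the 892 genes with 20 or more Tip60 reads and p400 values (and 13.7% of all 14311 genes with p400 values). These shares are not matched for p400 reads, and an interval clears 1 more readily with more reads. The 10 genes had 19 (Omg) to 64 (Yars) p400 reads in GFP KD cells, against a median of 18.9 over ranked genes within 2-fold. Iars had 48 p400 reads in GFP KD cells and 12 in Hdac6 KD cells (0.209, 0.0975 to 0.385), Tars had 39 and 10 (0.203, 0.0921 to 0.422), and Yars had 64 and 15 (0.186, 0.100 to 0.336). Reads of both subunits were lower at these synthetase promoters.

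Among the 34 genes for aminoacyl-tRNA synthetases, 18 had 20 or more Tip60 reads downstream, and 9 of these were at least 2-fold lower and 0 higher, against 20.9% lower over all ranked genes. The median log2 ratio of the 18 was −0.90 (−1.85 to −0.26), 0.59 below the median of all ranked genes. With the GC correction it was −0.49, and 7 of the 18 stayed at least 2-fold lower. The difference from all ranked genes was −0.37 without rows of stacked reads and −1.09 with a minimum of 40 reads. Summed over all 34 genes, without the minimum, Tip60 reads went from 630 to 282, a ratio of 0.499 (0.432 to 0.575), against 0.808 over all 17689 genes. A synthetase gene had on average 18.5 reads in GFP KD cells, 8.29 in Hdac6 KD cells and 6.41 in untagged cells. Over all genes the averages were 6.07, 4.41 and 4.98, so the 0.808 rests mostly on reads near the background. This list, like the others, was chosen with earlier results of these data known.

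The synthetase genes did not change alike. The 20 genes for cytosolic enzymes (with those that serve both compartments) had a summed ratio of 0.428 (0.359 to 0.508), and the 14 for mitochondrial enzymes of 0.722 (0.555 to 0.938). Besides the synthetases above, Lars (40 and 13 reads), Mars (40 and 12 reads), Gars (23 and 5 reads) and the mitochondrial Ears2 (26 and 8 reads) had intervals wholly below 1. Farsa (11 and 12 reads), Kars (13 and 14 reads) and the mitochondrial Yars2 (24 and 17 reads) had intervals that hold 1.

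The CARE core was found in 9 of the 34 synthetase genes (26.5%) against 344 of all 17689 genes (1.94%), counted on both strands between −600 and 300 bp. The 9 genes with the core had a summed ratio of 0.308 (0.241 to 0.392) and the 25 without it of 0.697 (0.578 to 0.835). The core was in 7.50% of the 240 genes that were at least 2-fold lower, in 1.90% of the 841 within 2-fold and in 3.13% of the 64 at least 2-fold higher, leaving out the 1% of rows with the most untagged reads. Of the 36 ranked genes with the core, 18 were at least 2-fold lower, 2 were higher and the median log2 ratio was −1.04 (−0.73 with the GC correction), against 20.0% lower of the 1109 ranked genes without it. Of the 21 with the core that are in neither list, 8 were lower and 2 higher, with a median of −0.72 (−0.20 with the GC correction). Summed over all 318 such genes the ratio was 0.814 (0.759 to 0.872), close to the 0.812 of genes without the core. With any base at the sixth place (TGATGNAA), the motif was in 9.51% of all genes, 12.1% of the lower genes, 6.30% of those within 2-fold and 10.9% of the higher genes. For comparison, other promoter motifs were counted in the same way. The GC box (GGGCGG) was in 85.8%, 78.2% and 68.8% of lower, similar and higher genes and in 59.8% of all genes, and CCGGAAG, the core of ETS sites, was in 38.8%, 38.8% and 29.7% and in 18.5% of all. The CARE core was searched for because the synthetase genes were seen to lead the ranking.

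Other genes of the amino acid response were low as well. A list of 34 such genes, put together after the values were seen and so no independent evidence, had 18 ranked genes, of which 10 were at least 2-fold lower and 1 was higher (against 20.9% and 5.44% of all ranked genes), with a median log2 ratio of −1.13 (−0.82 with the GC correction). Slc7a1, an importer of arginine and lysine, had 51 and 17 reads (0.369, 0.201 to 0.654). Nupr1, a stress-induced chromatin protein, had 25 and 4 reads (0.181, 0.0451 to 0.516). Asns, asparagine synthetase, had 32 and 19 reads, a difference within counting error (0.649, 0.354 to 1.20). The exception was Atf4 itself, with 7 reads in GFP KD cells, 20 in Hdac6 KD cells and 12 in untagged cells (ratio 3.10, 1.29 to 8.91), while p400 at Atf4 was lower (34 and 12 reads, 0.286, 0.134 to 0.564).

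**Figure D3:**
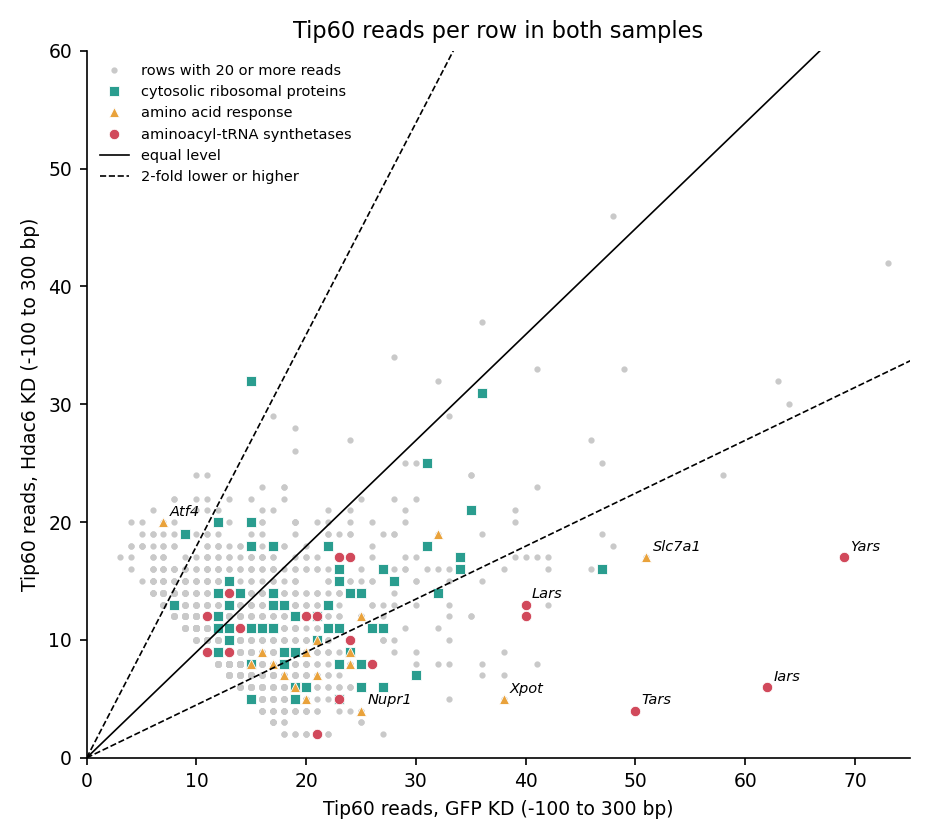
Tip60 reads from −100 to 300 bp in GFP KD cells (x axis) and Hdac6 KD cells (y axis) for each row with 20 or more reads (grey points, rounded to whole reads) and for the ranked members of 3 gene lists (colors), with the lines of equal normalized level (solid) and of a 2-fold difference (dashed); 9 rows lie outside the axes. Iars (62 and 6 reads), Tars (50 and 4) and Yars (69 and 17) lie farthest below the lines among the synthetase genes.

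The summed Tip60 reads of ribosomal protein genes were also lower, at a higher ratio than those of the synthetase genes. Of 79 genes for cytosolic ribosomal proteins, 64 were ranked, 16 (25%) were at least 2-fold lower, near the 20.9% of all ranked genes, and 2 were higher (Rps3a and Rpl29). A log2 ratio below 0 was found at 51 of the 64, against 788 of all 1194. The median log2 ratio was −0.58 (−0.79 to −0.33), 0.27 below that of all ranked genes, and was −0.18 with the GC correction. This difference was only −0.04 in windows 100 bp narrower on each side and −0.05 with a minimum of 40 reads. Summed reads went from 1481 to 912, a ratio of 0.686 (0.631 to 0.745). The small and large subunits were close, at summed ratios of 0.719 (0.628 to 0.822) and 0.665 (0.598 to 0.741).

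Single ribosomal protein genes ranged widely. Rps19 had 47 and 16 reads (0.389, 0.201 to 0.681), Rpl32 had 30 and 7 (0.283, 0.0963 to 0.604) and Rps7 had 27 and 6 (0.235, 0.0836 to 0.612). No difference was detectable at this depth at Rpl23a, with 36 and 31 reads (0.947, 0.574 to 1.59), or at Rpl4, with 31 and 25 reads (0.896, 0.508 to 1.57). Rps3a had 15 and 32 reads (2.38, 1.25 to 4.72). Reads with several matches were placed at 1 of them at random, and ribosomal protein genes have many processed copies, so reads in their exons are uncertain.

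For ribosomal protein genes the p400 ratio was lower than the Tip60 ratio of 0.686, which covers all 79 genes and not only those with p400 values. Over the 63 ribosomal protein genes with p400 values, p400 reads went from 1565 to 618, a ratio of 0.318 (0.290 to 0.350), and the interval was below 1 at 52 of them (against 51.7% of the genes with 20 or more Tip60 reads, not matched for p400 reads). At Rps3, p400 had 25 and 2 reads whereas Tip60 had 15 and 20, and at Rpl8 p400 had 34 and 9 reads whereas Tip60 had 15 and 18. For the synthetase genes the ratios of both subunits were nearer to each other, 0.499 for Tip60 (34 genes) and 0.377 (0.333 to 0.426) for p400 (33 genes). Over all genes they were 0.808 (17689 genes) and 0.646 (14311 genes with p400 values).

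Other families of housekeeping genes are read against 20.9% lower and 5.44% higher over all ranked genes. Of 23 ranked genes for splicing factors 8 were at least 2-fold lower, among them Sfrs6 (36 and 7 reads) and Hnrnpab (25 and 6 reads), and 0 higher. The median log2 ratio of the 23 was −0.67 (−1.08 to −0.30), or −0.15 with the GC correction, and lay 0.36 below that of all ranked genes. With a minimum of 10 reads this difference was −0.08. Of 19 ranked genes for translation factors 5 were lower and 0 higher, with a median of −0.58 (−0.15 with the GC correction), 0.27 below, led by Eef1a1, the elongation factor that delivers charged tRNAs to the ribosome (21 and 4 reads). Of 11 ranked genes for cyclins, kinases and replication licensing 3 were lower, among them Cdk4 (19 and 6 reads), and 1, Cdk1, was higher (8 and 20 reads, ratio 2.73, 1.17 to 7.31), with a median of −0.77 (−0.33 with the GC correction). The medians of mitochondrial ribosomal proteins (−0.50, 18 ranked genes), chaperones (−0.53, 13 genes) and proteasome subunits (−0.53, 8 genes) were 0.19 to 0.22 below that of all ranked genes. With a minimum of 10 reads the proteasome median was 0.46 above and the mitochondrial ribosomal one 0.04 above.

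**Figure D4:**
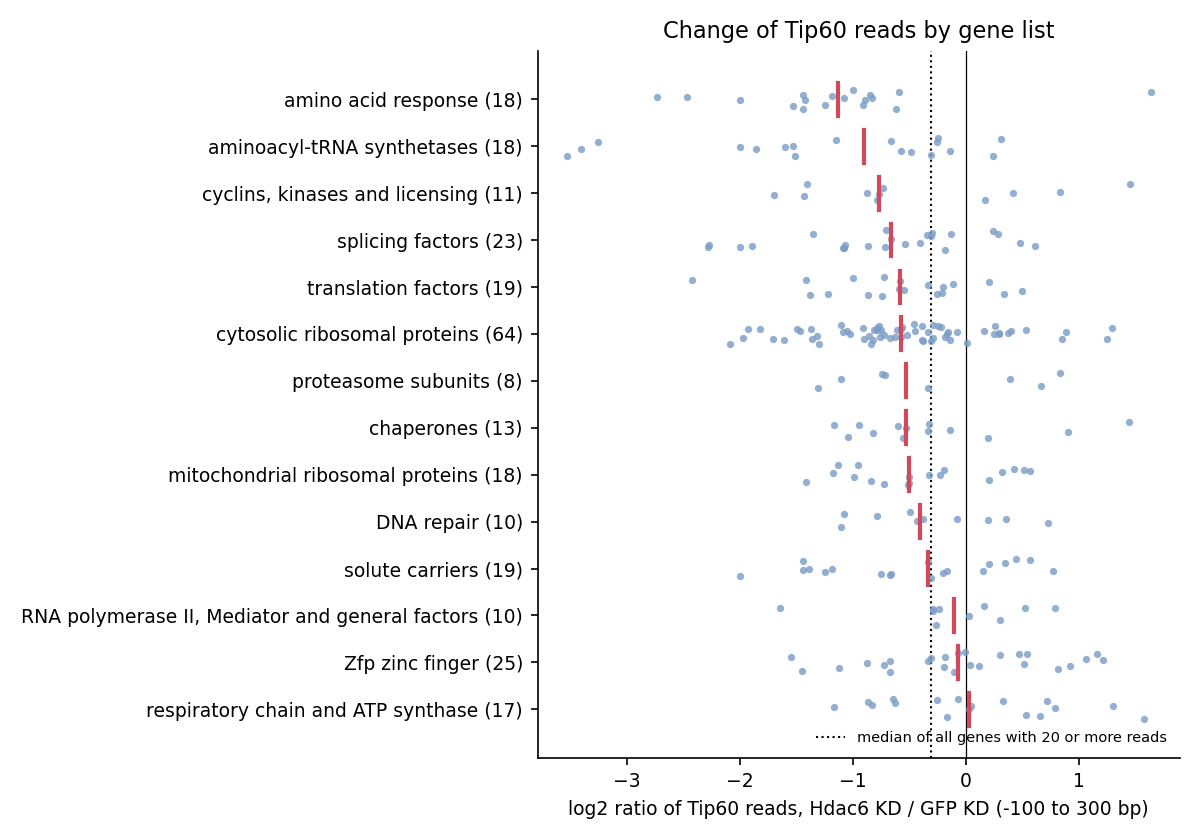
Log2 ratio of Tip60 reads downstream (Hdac6 KD over GFP KD) for each ranked gene (points) of the 14 lists with 8 or more ranked genes, their number in parentheses, with the median of each list (red bars) and of all ranked genes (dotted line, −0.31). The amino acid response list, at −1.13, and the synthetases, at −0.90, have the lowest medians, and the respiratory chain, at 0.03, the highest.

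Ranked genes for the respiratory chain and ATP synthase had a median near no change. Of 17 ranked genes 1 was at least 2-fold lower and 2 were higher, and the median log2 ratio was 0.03 (−0.63 to 0.65), or 0.45 with the GC correction. It was 0.34 above the −0.31 of all ranked genes, which its interval holds, and 0.16 above with a minimum of 10 reads. Summed over all 82 genes, reads went from 732 to 576, a ratio of 0.876 (0.784 to 0.979). Atp5g2, a gene for the rotor ring of ATP synthase, had 41 and 33 reads (0.892, 0.549 to 1.45), while p400 had 40 and 9 reads there. Ndufb5, of complex I, had 6 and 16 reads (2.98, 1.10 to 9.27). Of 25 ranked genes for Zfp zinc finger proteins 3 were lower and 3 higher, with a median of −0.08 (0.22 with the GC correction), and over all 272 genes the summed ratio was 0.895 (0.835 to 0.959).

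Lists of developmental, keratin and pluripotency genes had few or no ranked genes. None of the genes in the Hox clusters (39 genes), of Wnt ligands, receptors and inhibitors (40 genes), of early endoderm (16 genes), of keratins (81 genes) or of core pluripotency factors (24 genes) had 20 reads downstream. Their summed ratios were 0.972 (0.777 to 1.22), 0.744 (0.593 to 0.927), 0.838 (0.586 to 1.19), 0.811 (0.677 to 0.968) and 0.626 (0.488 to 0.802). In the same order, a gene had on average 4.34, 5.09, 4.83, 3.67 and 7.61 reads in GFP KD cells. Untagged cells had 4.44, 4.86, 4.20, 3.98 and 6.62, so few of these reads stood above the background. Of the other developmental lists, the Nodal pathway (18 genes, 2 ranked, Foxh1 among them) had a summed ratio of 0.508 (0.374 to 0.695), forkhead, Sox and T-box factors (72 genes, 3 ranked) of 0.757 (0.643 to 0.891), bHLH factors (33 genes, 1 ranked) of 0.676 (0.529 to 0.862) and dispersed homeobox genes (88 genes, 1 ranked) of 1.00 (0.861 to 1.17). A gene of these lists had on average 7.64, 5.17, 5.47 and 4.13 reads in GFP KD cells, against 6.15, 4.09, 5.46 and 4.25 in untagged cells. The 1336 genes for olfactory, vomeronasal and taste receptors, which had 3.40 reads a gene in GFP KD cells against 3.45 in untagged cells, had a summed ratio of 1.00 (0.960 to 1.05), at a mean GC content of 41.7%.

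Among the genes with ChIP data in the study, Cdkn1a, the p53 target that encodes p21, had 19 and 6 reads downstream (0.346, 0.115 to 0.916). Nodal, a signal for mesendoderm, had 12 reads in GFP KD cells, 1 in Hdac6 KD cells and 13 in untagged cells (0.0949, 0.00217 to 0.627). Rps9 (12 and 20 reads), Rpl27a (13 and 15) and Zfp37 (7 and 10) had intervals that hold 1, as did Dkk1, Gata4, Nefl and Speer2, which had 6 or fewer reads in either sample. Upstream, every one of these 9 genes had an interval that holds 1. Of the subunits of the complex itself, 5 of 18 genes were ranked, and 1 of the 5 was at least 2-fold lower, against 20.9% of all ranked genes. This was Morf4l1, which binds methylated histone H3 (18 and 4 reads, 0.261, 0.0609 to 0.751). The paper did not find this known subunit in Tip60 complex purified from ESCs.

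The 10 genes with the highest lower bounds are likewise a description of the extremes, and few reads in GFP KD cells follow from how they were chosen. They had 3 to 8 reads in GFP KD cells, 16 to 22 in Hdac6 KD cells and 2 to 12 in untagged cells. Agtpbp1, a tubulin deglutamylase, had 4 and 20 reads (6.17, 1.87 to 22.4), Lrrc28 had 3 and 17 (6.01, 1.83 to 33.6) and Rbp2, a retinol-binding protein, had 4 and 18 (5.28, 1.65 to 20.4). In Hdac6 KD cells the largest rise between neighbouring positions, 20 bp apart, was 11 reads at Agtpbp1, 8 at Lrrc28 and 4 at Rbp2, against 7 at Tars, with 50 reads in the window, in GFP KD cells, and the part of such stacks in the difference at these genes was not tested. BC046404 (5 and 20 reads), Sec61a1, of the protein channel into the endoplasmic reticulum (4 and 16), Apitd1, a kinetochore protein (5 and 18), Upk2 (5 and 18), N6amt2 (6 and 19) and Nup37, a nucleoporin (8 and 22), followed, and Atf4 was the tenth. Of the 7 with p400 values, p400 was lower upon Hdac6 KD at 6, against 603 of the 619 ranked genes within 2-fold that have p400 values. An interval above 1 was found at 0 of the 7, as at 0.00% of the 892 genes.

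In the upstream window, lower and higher genes were closer in number. Of 1105 ranked genes, 170 (15.4%) were at least 2-fold lower and 120 (10.9%) higher, and the median log2 ratio over the 1640 rows was −0.09 (−0.14 to −0.05). Among the 782 rows with no other TSS within 1000 bp, 12.0% were lower and 12.9% higher, and the median was 0.02 (−0.05 to 0.08). The lowest upper bounds were at Pdap1 (23 and 2 reads, 0.0992, 0.0111 to 0.392), S100pbp (61 and 12 reads, 0.226, 0.107 to 0.411), Slc25a39 (29 and 4), Lyar (20 and 2) and Zfp786 (20 and 2). The first 4 have another TSS within 351 bp, and the window of S100pbp covers the TSS of Yars, so that the same reads count for both. The highest lower bounds were at Poc1b (3 and 21 reads), Slc25a12 (4 and 21), Edc3 (4 and 19), Rexo2 (4 and 18) and 1700030F18Rik (4 and 17), all of them with 4 to 17 reads in untagged cells.

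At some amino acid genes most Tip60 reads lay upstream of the TSS and were lower there. Psat1, an enzyme of serine synthesis, had 57 and 17 reads upstream (0.329, 0.181 to 0.579) against 24 and 8 downstream. Chac1, which degrades glutathione, had 42 and 9 reads upstream (0.237, 0.102 to 0.497) against 15 and 8 downstream, with a CARE core at −209 bp. Of the 6 members of the amino acid response list ranked upstream, 5 were at least 2-fold lower and 0 higher, against 15.4% lower of all genes ranked upstream, for a list put together after the values were seen.

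For rows ranked in both windows the change downstream could be set against that upstream. Over 432 such rows, the median difference of the log2 ratios was −0.21 (−0.29 to −0.08), with 248 rows more lower downstream and 184 more lower upstream, and −0.06 with the GC correction. Over the 170 of these rows with no other TSS within 1000 bp, the interval of the difference held 0 (−0.33 to 0.04). The gene with the largest difference was Rplp2, an acidic ribosomal protein, with 25 and 8 reads downstream and 5 and 16 upstream. Iars had 62 and 6 reads downstream but 14 and 9 upstream, and Sfrs6 had 36 and 7 downstream but 9 and 12 upstream. Ncapd2 (22 and 2 downstream, 23 and 14 upstream) and Fdxacb1 (19 and 7 downstream, 7 and 15 upstream) followed. The reverse was seen at 4632434I11Rik (11 and 10 reads downstream, 19 and 2 upstream), Tmem43 (10 and 12 reads downstream, 22 and 5 upstream), Ndufb5 (6 and 16 downstream, 19 and 12 upstream), Pdap1 (16 and 6 downstream, 23 and 2 upstream) and Tbce (8 and 14 downstream, 16 and 8 upstream).

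The change was also described against measures that did not enter the ranking. Genes with more p400 in GFP KD cells had lower Tip60 ratios. In the lowest of 5 equal bins by p400 reads (3.28 to 13.8 reads) the median log2 ratio was −0.06 (−0.19 to 0.12) and 27 of 171 genes were at least 2-fold lower, and in the highest bin (26.2 to 71.6 reads) it was −0.72 (−0.85 to −0.61) and 59 of 170 were lower. With the GC correction these medians were 0.31 and −0.26, and the median GC content was 59.4% and 66.1%. Across 5 bins by Hdac6 ChIP reads, the median went from −0.08 (−0.19 to 0.08) to −0.52 (−0.61 to −0.39), but with the GC correction only from 0.23 to −0.04. Across 5 bins by untagged reads, the medians lay between −0.42 and −0.24 and did not order with the background.

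These measures were also given by class. The 240 genes at least 2-fold lower, the 841 within 2-fold and the 64 at least 2-fold higher had median GC contents of 63.2%, 63.3% and 61.0%, median untagged reads of 6.76, 6.56 and 7.03, and median Hdac6 reads of 8.76, 8.22 and 7.28. Their median p400 log2 ratios were −1.35, −1.20 and −1.01, and p400 was lower in most genes of each class (183 of 188, 603 of 619 and 42 of 47 with p400 values).

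**Figure D5:**
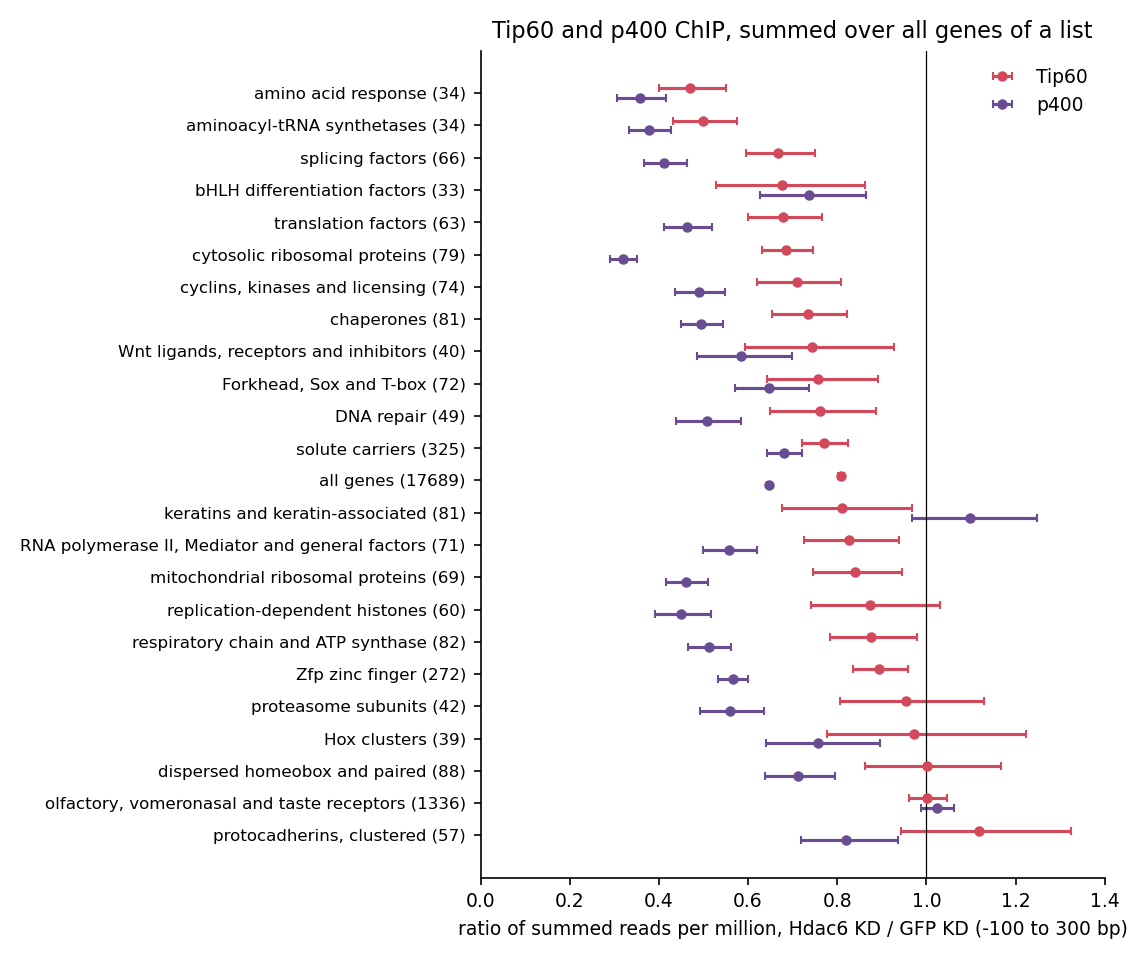
Ratio of summed normalized reads (Hdac6 KD over GFP KD, −100 to 300 bp) for Tip60 (red) and p400 (purple) over the genes of each list with 30 or more genes (number in parentheses), with 95% exact conditional intervals that cover counting error only. Sums for p400 cover only the members with p400 values. Tip60 is at 0.499 for the synthetases and 0.686 for the ribosomal proteins, p400 at 0.377 and 0.318, and the receptor list is near 1 for both (1.00 and 1.02).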

How the data were processed

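Chromatin was immunoprecipitated with the Flag antibody (or an antibody to p400) and sequenced as single-end reads. The authors collapsed reads by sequence with their occurrences kept (so PCR copies count), mapped them to mm9 with Bowtie (version not given in the sources used here) allowing 1 mismatch, placed reads with several matches at random, extended them, removed simple repeats and deposited normalized coverage signal every 20 bp from −2000 to 2000 bp around each TSS. The paper's methods do not state the total used for this normalization. The submitters' processing notes name CASAVA 1.8.2. The paper's methods state an extension to 150 bp, but isolated reads span 299 bp in the Tip60 files.

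The deposited signal is a whole multiple of a step in 100% of values (tolerance 0.01 steps), so reads per window were the summed signal in steps, times 20, over the read span. Reads near a window's edge count in part, reads can enter both windows, and rows with close TSSs share reads. Ratios were normalized to the reads behind each step, intervals of ratios are exact conditional (Clopper-Pearson), and genes were represented by their RefSeq row with the most reads. Intervals of medians are order-statistic (exact binomial) intervals over rows or genes, all of them from 1 library a side. p400 rows were joined by unique RefSeq identifier (14827 rows). Sequences and GC content came from mm9. Named genes were those with the 10 lowest upper and 10 highest lower bounds downstream and 5 and 5 upstream (20 or more reads, outside the 1% of rows with the most untagged reads), the 5 largest differences between the windows each way, the members of each list with the most reads and the genes with ChIP data in the study; other members were named after their values were seen. The members and lists were chosen with earlier results of these data known, and the amino acid response list and CARE after the row values were seen. The calculations used Python 3.11.15, numpy 2.4.6, scipy 1.17.1, pysam 0.24.0 and matplotlib 3.10.9 and were tested on simulated data. A sample with conflicting labels was not used here. The sequence of 1 further site is not reported here.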

Additional observations from a re-analysis of the deposited data

How the results depend on the processing

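Over 13 alternatives, the medians of the gene lists relative to all genes moved beyond their spread in 5 of 261 values and the named genes in 6 of 326. Many of these values could not move. A named gene's ratio is the same under another minimum of reads, and a common scaling leaves list medians relative to all genes unchanged. The small counts are therefore no measure of robustness. List medians with wide spreads changed direction within them: relative to all genes the proteasome median (−0.22) was 0.46 with a minimum of 10 reads and 0.32 without stacked reads, and the mitochondrial ribosomal one (−0.19) was 0.036 with 10 reads and 0.0094 in wider windows. The ribosomal protein median (−0.27) was −0.040 in narrower windows and −0.052 with 40 reads. The counts over all rows moved far more, but so did the number of rows ranked. Downstream, 191 rows were ranked in narrower windows, 6380 in wider ones, 14022 with 10 reads and 128 with 40 reads, against 1798. Lower rows were 26.2%, 17.9%, 23.3% and 28.1% of these, against 20.5%. Higher rows were 2.62%, 6.55%, 11.05% and 0.78%, against 5.90%. Upstream, lower rows were 25.96%, 14.73%, 19.72% and 22.97%, against 16.22%. Higher ones were 2.88%, 8.75%, 13.6% and 1.35%, against 10.12%. Lower and higher rows downstream (369 and 5.90% of 1798 as reported) and upstream (266 and 166) were 50 and 5, and 27 and 3, in windows 100 bp narrower on each side, 1143 and 418, and 958 and 569, in wider ones, 3272 and 1549, and 2917 and 2012, with a minimum of 10 reads, 36 and 1, and 17 and 1, with 40 reads, and 668 and 242, and 474 and 327, at 1.5-fold. The median log2 ratio downstream and upstream (−0.33 and −0.09) was −0.55 and −0.50 in narrower windows and −0.63 and −0.63 with 40 reads, and downstream was −0.24 in wider windows and −0.24 with 10 reads.

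Scaling to equal totals (a shift of 0.15 log2) gave medians of −0.18 and 0.055, reversing the sign upstream, where 197 rows were then lower and 221 higher. Scaling to equal flank signal (a shift of 0.09) gave −0.24 and −0.0013. The GC correction gave 0.051 and 0.12, reversing both, with 179 rows lower and 213 higher downstream and 150 and 243 upstream, and a median difference between the windows of −0.062. Subtracting the untagged signal (differences floored at 1 read) gave 660 and 298 rows, 480 and 429 rows, medians of −0.45 and −0.036, a difference between the windows of −0.36 and a ribosomal protein median 0.49 below all genes (−0.49). With 1 row per gene, 65 were higher downstream and 170 lower upstream. Without rows of stacked reads, 303 of 1511 rows downstream were lower and 96 higher, and 237 of 1412 upstream were lower and 149 higher. Rows with no other TSS within 1000 bp gave 180 and 57, and 94 and 101, with a median upstream of 0.025. The causes were not tested. No paired analysis was possible because each group has 1 sample, and for the same reason no replicate could be left out. With 1 culture a side and few reads per row, counting error alone limits most single genes.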
